A study of Mus musculus with 40 samples.

Results

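The dual-specificity MAPK phosphatases (DUSPs) are enzymes that remove phosphate from both the threonine and the tyrosine of the activation loop of MAP kinases, and so switch off ERK, JNK and p38. The 10 genes described here, Dusp1, Dusp2, Dusp4, Dusp5, Dusp6, Dusp7, Dusp8, Dusp10, Dusp14 and Dusp16, were chosen by name, and all 10 were found among the 27179 genes of the table. In macrophages, LPS binds TLR4 and activates the 3 MAP kinase branches within minutes, and several phosphatases of this family are themselves transcribed in response, as negative feedback. Their transcripts are often short-lived, because AU-rich elements (AREs) in the 3′ UTR recruit the mRNA-destabilizing protein TTP. CPEB4, the protein removed in this study, binds cytoplasmic polyadenylation elements (CPEs) in 3′ UTRs and recruits enzymes that change the length of the poly(A) tail.

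Bone marrow-derived macrophages (BMDMs), macrophages grown in culture from bone marrow cells with M-CSF from L-cell conditioned medium, came from 4 WT and 4 Cpeb4-/- mice. All were male adults of a mixed C57BL/6J and 129 background, and Cpeb4 was missing from all cells of the animal, not from macrophages alone. Cells of each mouse were left untreated (0 hr) or given 10 ng/ml LPS from E. coli 0111:B4 for 1, 3, 6 or 9 hr, which gave 40 poly(A) RNA libraries in 10 groups of 4 mice. Values are rlog, a log2 scale corrected for library size and shrunken at low counts, so that 1 unit is a doubling and folds of weak genes are understated; the depth of the libraries is unknown here, because the table holds no counts. Libraries of a group correlated with r from 0.998 to 0.999. Each of the 2 batches held 2 mice of each genotype, but no cage held both genotypes, so cage and genotype cannot be told apart.

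Cpeb4 itself, the targeted gene, passed the test between the labelled genotypes at 6 hr alone, when the 4 WT values were 10.09 to 10.67 and the 4 Cpeb4-/- values 8.74 to 9.66 (difference −1.27, SE 0.19, limma adjusted p = 0.0011). At 0, 1, 3 and 9 hr the values of the genotypes overlapped. A gene-level value cannot tell an intact transcript from the remaining exons of a deleted one, so this check of the labels is weak and genotypes follow the labels. All 9 macrophage markers were detected, with Lyz2 from 17.72 to 18.91 and Adgre1 from 15.51 to 16.45 in every library. The summed level of these 9 markers was 19.02 to 19.53 in WT and 18.7 to 19.2 in Cpeb4-/- libraries. Of the marker lists of other cells, the genes whose mean was above the expression floor, an rlog of 2.32, were 1 of 6 for neutrophils (Camp, 2.00 to 5.00), 2 of 4 for dendritic cells (Xcr1, 4.42 to 7.06, and Zbtb46, 1.82 to 4.72), 1 of 4 for T cells (Lck, 4.69 to 8.51), 1 of 3 for B cells (Cd79b, 4.56 to 6.55), 1 of 4 for fibroblasts (Dcn, 1.32 to 4.16) and 0 of 3 for mast cells or basophils, and the 2 erythroid markers were listed at 0 in every library. The summed level in WT and in Cpeb4-/- libraries was 3.34 to 5.13 and 3.40 to 5.18 for neutrophils, 5.13 to 7.23 and 4.87 to 7.13 for dendritic cells, and 4.99 to 8.52 and 4.91 to 7.98 for T cells. It was 4.89 to 6.63 and 4.78 to 6.07 for B cells, and 2.78 to 4.49 and 2.91 to 5.94 for fibroblasts. Ly6g, Elane and Prtn3 (neutrophil) and Cd3e, Cd3d and Cd3g (T cell) never exceeded an rlog of 1.18. Col1a1 and Col1a2, the fibroblast collagens, had medians of 1.60 and 1.34 and reached 4.62 and 4.11. The part of other cells in any result was not tested, and in bulk RNA fewer cells of a type and less RNA per cell cannot be told apart.

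Among the genes that rose early after LPS, Dusp1, Dusp5 and Dusp8 held the letters of a signal-responsive element just before the start site used. Their promoters are shown for that reason. In the RefSeq promoter table (build GRCm38.p6) 9 of the 10 genes were matched, all but Dusp4. The 250 bases before the start site were searched on both strands for the cAMP-responsive element (CRE, TGACGTCA), the AP-1 site (TGANTCA), the SRF-binding CArG box and the NF-kB site, and on the gene strand for the TATA box (TATAAA). Capitals mark the matches in these 3 sequences, which run 5′ to 3′ on the gene strand.

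Dusp1, chr17:26508473-26508722, minus strand: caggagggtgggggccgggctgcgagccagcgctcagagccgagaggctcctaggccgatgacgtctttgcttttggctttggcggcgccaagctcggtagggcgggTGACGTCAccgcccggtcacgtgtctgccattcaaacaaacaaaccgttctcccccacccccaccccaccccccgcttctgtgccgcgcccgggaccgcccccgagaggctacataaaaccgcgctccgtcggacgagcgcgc

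Dusp8, chr7:142095285-142095534, minus strand: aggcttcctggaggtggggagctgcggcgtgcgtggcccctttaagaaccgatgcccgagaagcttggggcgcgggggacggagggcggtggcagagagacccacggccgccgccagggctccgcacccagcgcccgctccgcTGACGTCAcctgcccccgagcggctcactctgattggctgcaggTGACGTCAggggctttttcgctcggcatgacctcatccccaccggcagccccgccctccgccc

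Dusp5, chr19:53528895-53529144, plus strand: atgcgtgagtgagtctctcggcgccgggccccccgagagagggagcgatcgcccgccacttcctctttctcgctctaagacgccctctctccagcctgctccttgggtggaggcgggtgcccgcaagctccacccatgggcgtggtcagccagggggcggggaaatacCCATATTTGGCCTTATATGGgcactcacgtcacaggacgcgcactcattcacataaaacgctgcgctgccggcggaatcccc

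Dusp1 held 1 CRE, which began 143 bases before its start site, and Dusp8 held 2, which began 107 and 63 bases before the start site used. The Dusp8 window lies inside the annotated gene (chr7:142079487-142095907), as do those of Dusp14 and Dusp16, and that of Dusp7 lies partly inside. The start sites used for these genes are therefore not the outermost ones. A CRE was present in 1.55% of the 32851 promoters of the table. Dusp5 held 2 CArG boxes, which began 82 and 72 bases before its start site and overlap in no base, whereas 1.47% of all promoters held any. No CRE or CArG box matched in the other matched genes. Among them were Dusp2, Dusp14 and Dusp16, which were also higher at 1 hr in WT cells. No AP-1 site, TATA box or NF-kB site matched in these windows of the 9 genes, against 6.75%, 7.59% and 3.9% of all promoters. A match is a description of the letters and not a measured binding site.

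The first question was how LPS alone moved each phosphatase in WT cells. At 1 hr, 9 of the 10 genes passed the limma test against untreated cells, 7 higher and 2 lower, where 37.7% of the 13103 genes tested passed (19.4% higher, 18.3% lower). After 3 hr of LPS 10 passed, 5 higher and 5 lower, where 69.9% of all genes did (33.5% higher, 36.4% lower). The count was 8 after 6 hr, 6 higher and 2 lower, beside 79.9% of all genes (39.7% and 40.2%), and 8 after 9 hr, 4 higher and 4 lower, beside 73.7% (37.0% and 36.6%). At 6 and 9 hr these shares are close to those of all genes. The plot of the 10 time courses shows 4 shapes: a spike at 1 hr, a sustained rise, a delayed peak at 3 hr and a fall with recovery.

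**Figure D1:**
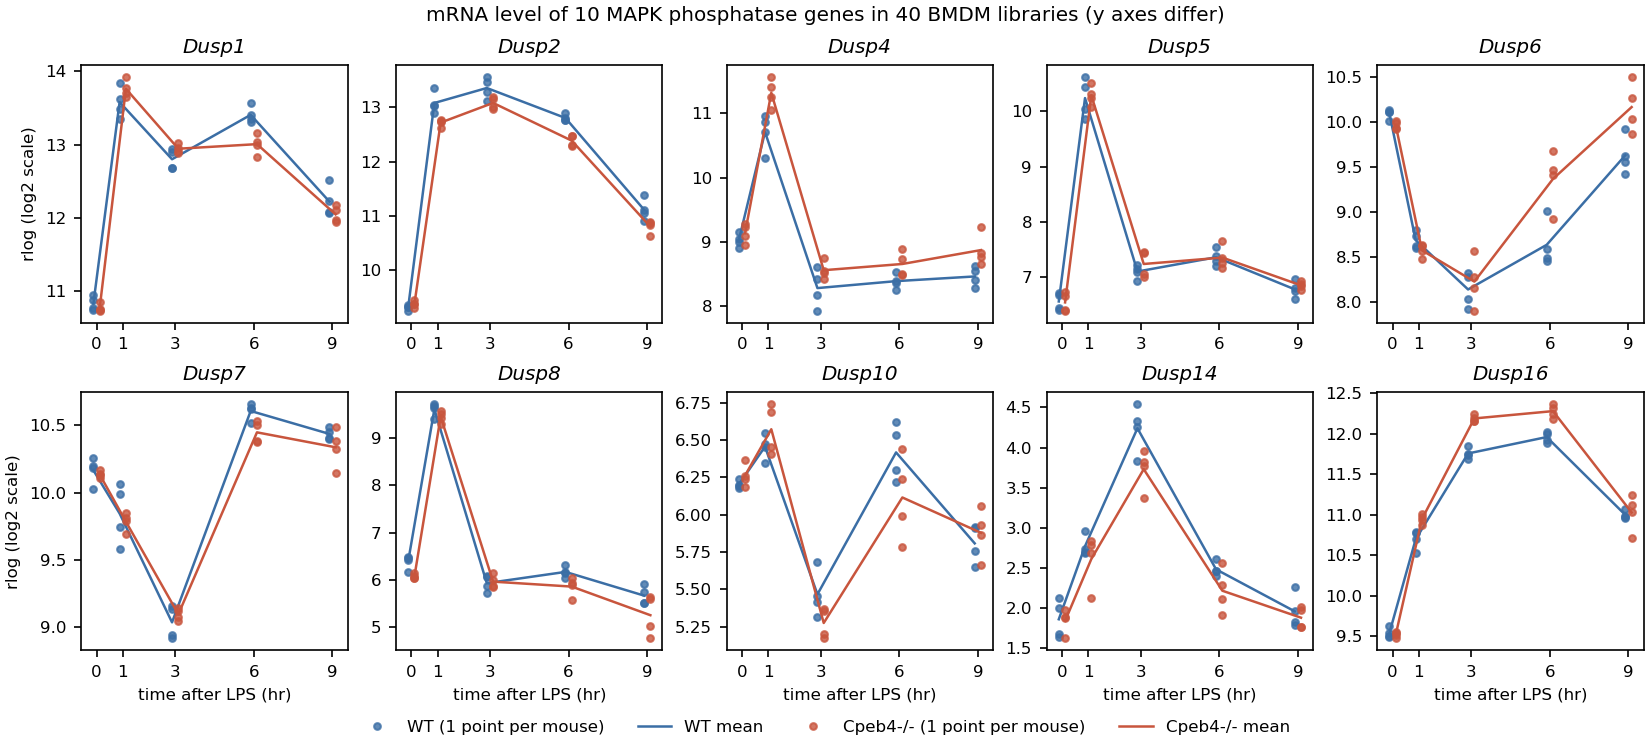
rlog (log2 scale, y axis, a different range in each panel) of the 10 genes against time after LPS in hr (x axis), with 1 point per mouse and a line through the mean of 4 mice, in WT (blue) and Cpeb4-/- (red). Dusp4, Dusp5 and Dusp8 peak at 1 hr and are near or below their untreated level at 9 hr, whereas Dusp2 and Dusp16 stay high to 6 hr, and Dusp6 and Dusp7 are lowest at 3 hr.

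Dusp1, a nuclear phosphatase that prefers p38 and JNK, had a biphasic course in WT cells. Its untreated values were 10.88, 10.95, 10.77 and 10.74 in WT mice 25, 69, 87 and 88. At 1 hr the same mice gave 13.63, 13.85, 13.36 and 13.49, a rise of 2.75 (SE 0.09, 6.72-fold, adjusted p = 3.2e-24). The groups were far apart, and 1 hr was the highest time in all 4 mice. At 3 hr Dusp1 had fallen back by 0.78 to 12.68, 12.94, 12.68 and 12.90. At 6 hr it was higher again, at 13.31, 13.56, 13.35 and 13.40, a second rise of 0.61 over 3 hr that exceeded the spread between mice, since the highest 3 hr value was below the lowest 6 hr value. By 9 hr it had dropped to a mean of 12.23, which was 39.2% ± 3.5 (SD, n = 4) of the 1 hr level of the same mice.

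Dusp2, a nuclear phosphatase of activated immune cells, rose most of the 10. From untreated values of 9.25 to 9.37 it reached 13.03, 12.89, 13.35 and 13.03 at 1 hr in mice 25, 69, 87 and 88, a rise of 3.76 (SE 0.09, 13.5-fold, adjusted p = 5.9e-29). Its mean was highest at 3 hr in all 4 mice (13.35, a rise of 4.03 over untreated cells). The step from 1 to 3 hr was small, +0.28 (adjusted p = 0.0062), missed the threshold without WT mouse 25 (adjusted p = 0.072) and turned to −0.05 after quantile normalization. Between 6 and 9 hr Dusp2 fell by 1.69, and 21.5% ± 4.0 (SD, n = 4) of the 3 hr level was left at 9 hr.

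Dusp4 and Dusp5 are nuclear too, and Dusp5 acts on ERK alone. Dusp4 rose from 9.15, 9.00, 8.91 and 9.04 to 10.86, 10.96, 10.31 and 10.71 at 1 hr in mice 25, 69, 87 and 88, a change of 1.68 (SE 0.14, 3.21-fold, adjusted p = 6.6e-13). At the 3 later times it was below its untreated level, by differences of −0.74, −0.64 and −0.56 in order, and each of these passed the test. Dusp5 rose from 6.68, 6.71, 6.42 and 6.45 to 10.44, 10.62, 9.86 and 10.03, a change of 3.67 (SE 0.13, 12.7-fold, adjusted p = 3.3e-23). The step from 1 to 3 hr was −3.13, and at 9 hr 9.33% ± 2.1 (SD, n = 4) of the 1 hr level was left, a value 0.22 above untreated cells that did not pass the test (adjusted p = 0.13). After quantile normalization this residual rise was 0.53 and passed (adjusted p = 0.00045). For both genes the 1 hr values of all 4 mice lay above those at every other time.

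Dusp6 and Dusp7, the cytoplasmic phosphatases of ERK, moved the other way. Dusp6 fell from 10.13, 10.11, 10.11 and 10.01 to 8.74, 8.80, 8.62 and 8.60 at 1 hr in mice 25, 69, 87 and 88, and to 8.32, 7.92, 8.28 and 8.04 at 3 hr. The change at 3 hr was −1.95 (SE 0.14, adjusted p = 4.3e-15), so that 3 hr was the lowest time, and at 9 hr Dusp6 was still 0.46 below untreated cells in log2 terms (adjusted p = 0.0031). Dusp7 changed by −0.32 at 1 hr and by −1.13 at 3 hr (SE 0.07, adjusted p = 4.7e-16). It then rose by 1.57 between 3 and 6 hr, from values of 8.92 to 9.16 to values of 10.52 to 10.66, all above the untreated range of 10.03 to 10.26. In Dusp7 the final step from 6 to 9 hr was −0.17, just past the threshold (adjusted p = 0.049), a call kept in 4 of 14 alternatives. It was lost after quantile normalization (−0.08, adjusted p = 0.33), without the expression filter (0.074), without the trend (0.055), with WT libraries alone (0.099), and without WT mouse 25, 69 or 88 or Cpeb4-/- mouse 3, 55 or 62 (adjusted p from 0.058 to 0.15).

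Dusp8, Dusp10 and Dusp16 form the group that acts on JNK and p38. Dusp8 had the largest fall from 1 to 3 hr of the 10 genes. Its values were 6.47, 6.17, 6.43 and 6.49 untreated, 9.63, 9.40, 9.66 and 9.71 at 1 hr, and 5.72, 5.86, 6.07 and 6.06 at 3 hr. Its rise was 3.21 (SE 0.13, 9.27-fold, adjusted p = 2.2e-21), the step from 1 to 3 hr was −3.67, and 6.63% ± 1.2 (SD, n = 4) of the peak was left at 9 hr, when it was 0.72 below untreated cells (adjusted p = 9.1e-06). The value at 3 hr, −0.46 against untreated cells (adjusted p = 0.0024), missed the threshold after quantile normalization (−0.24, adjusted p = 0.10).

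Dusp16 kept a larger share of its peak at 9 hr than the other genes that rose at 1 hr. Against untreated cells it was higher by 1.16, 2.22 and 2.42 after 1, 3 and 6 hr (for the last, SE 0.07, 5.35-fold, adjusted p = 1.6e-27), and 6 hr was the highest time in all 4 WT mice. Its last rise, 0.20 from 3 to 6 hr (adjusted p = 0.0080), missed the threshold without WT mouse 87 (adjusted p = 0.053) and after quantile normalization (0.06, adjusted p = 0.44). At 9 hr 51.4% ± 3.3 (SD, n = 4) of the 6 hr level was left.

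Dusp10 moved within a range of 0.99 between its highest and lowest mean. In WT cells it was 0.25 above untreated cells at 1 hr (adjusted p = 0.067, 0.044 with the replicate block, 0.049 without Cpeb4-/- mouse 55 and 0.017 after quantile normalization) and 0.74 below them at 3 hr (adjusted p = 2.7e-07). At 6 hr it was 0.22 above (adjusted p = 0.071), which became 0.58 and passed after quantile normalization (adjusted p = 1.3e-05). The fall of 0.39 at 9 hr (adjusted p = 0.0017) was lost with the same change (−0.08, adjusted p = 0.55). The direction at 3 hr held under both scalings.

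Dusp14, a small phosphatase without the kinase-binding domain of the others, was the weakest. Its untreated WT values of 2.13, 2.00, 1.68 and 1.64 lay under the expression floor of 2.32, the log2 of 5. At 3 hr the same mice gave 4.54, 4.26, 4.33 and 3.83, a rise of 2.38 (SE 0.17, adjusted p = 3.0e-15) that shrinkage at low counts makes smaller than the change in reads. At 9 hr it was 0.10 above untreated cells (adjusted p = 0.60). Its peak was at 3 hr in all 4 WT and all 4 Cpeb4-/- mice.

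**Figure D2:**
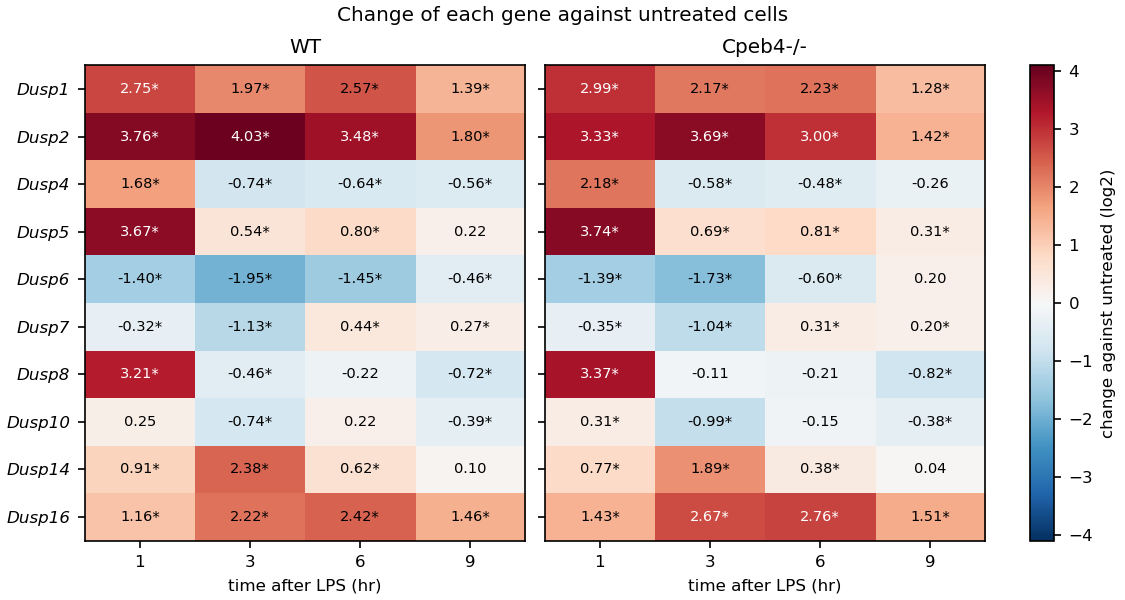
Change of each gene against untreated cells of the same genotype (log2, colour and printed value) at 1, 3, 6 and 9 hr in WT (left) and Cpeb4-/- (right) cells, means of 4 mice, with an asterisk for an adjusted p under 0.05. The sign patterns of both panels are alike for the large changes, and Dusp6 at 9 hr is −0.46 in WT (asterisk) and 0.20 in Cpeb4-/- (no asterisk).

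The Cpeb4-/- cells went through the same shapes. Against untreated Cpeb4-/- cells the number of members called was 10, 9, 8 and 7 in order of time, beside 41.9%, 69.9%, 77.9% and 71.3% of all genes. The rise at 1 hr was 2.99 for Dusp1, 3.33 for Dusp2, 2.18 for Dusp4, 3.74 for Dusp5 and 3.37 for Dusp8. The time of the highest mean was that of the WT cells for 9 of the 10 genes. The exception was Dusp6, whose highest mean was the untreated one in WT and the 9 hr one in Cpeb4-/- cells, in 3 of 4 mice. In Cpeb4-/- cells its 9 hr level was 0.20 above the untreated one and did not pass (limma adjusted p = 0.19). Only the fit without Cpeb4-/- mouse 55 called it (0.31, adjusted p = 0.040). Dusp1 showed no second rise: the step from 3 to 6 hr was +0.06 in Cpeb4-/- cells, against +0.61 in WT cells.

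The second question was whether loss of CPEB4 changed any of them, taken at each time over 8 libraries. In limma, 0 members passed in untreated cells and 0 after 1 hr of LPS, where 1.31% and 1.91% of all genes did, although 2 and 3 members had an unadjusted p under 0.05. Later, 1 of 10 members passed after 3 hr (all genes 3.68%), 5 of 10 after 6 hr (16.3%) and 1 of 9 after 9 hr (7.91%). Dusp14 was under the expression floor at 0 and 9 hr and was not tested there. Counted by values that do not overlap, 2, 3, 1, 4 and 2 members separated the genotypes in order of time from untreated cells on, beside 10.5%, 15.7%, 13.6%, 20.2% and 16.9% of all genes tested. Of the 5 members called after 6 hr, 2 were higher in Cpeb4-/- cells (all genes 6.40%) and 3 lower (9.92%). Macrophage markers moved with the genotype as well. Of the 9, Cd14 was lower in Cpeb4-/- cells at 0 hr (−0.32, adjusted p = 0.046) and after 1 hr (−0.38, adjusted p = 0.013). Lower were 2 after 3 hr (Cd14 and Lyz2), 5 after 6 hr (Csf1r, Cd68, Fcgr1, Lyz2 and Spi1) and 4 after 9 hr (Cd68, Cd14, Fcgr1 and Spi1), and 0 were higher. At 6 hr the largest of these differences were −0.38 for Lyz2 and −0.28 for Fcgr1, and the summed level of the list was 19.31 to 19.38 in WT and 18.99 to 19.2 in Cpeb4-/- libraries. Of the markers of other cells, Zbtb46 was higher in Cpeb4-/- cells after 3 hr (1.10, adjusted p = 0.0068). Lower were Xcr1 (−0.49, adjusted p = 0.012) and Lck (−0.39, adjusted p = 0.034) after 6 hr, and Lck again after 9 hr (−0.55, adjusted p = 0.037). The part of all these markers in the differences of the phosphatases was not tested.

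**Figure D3:**
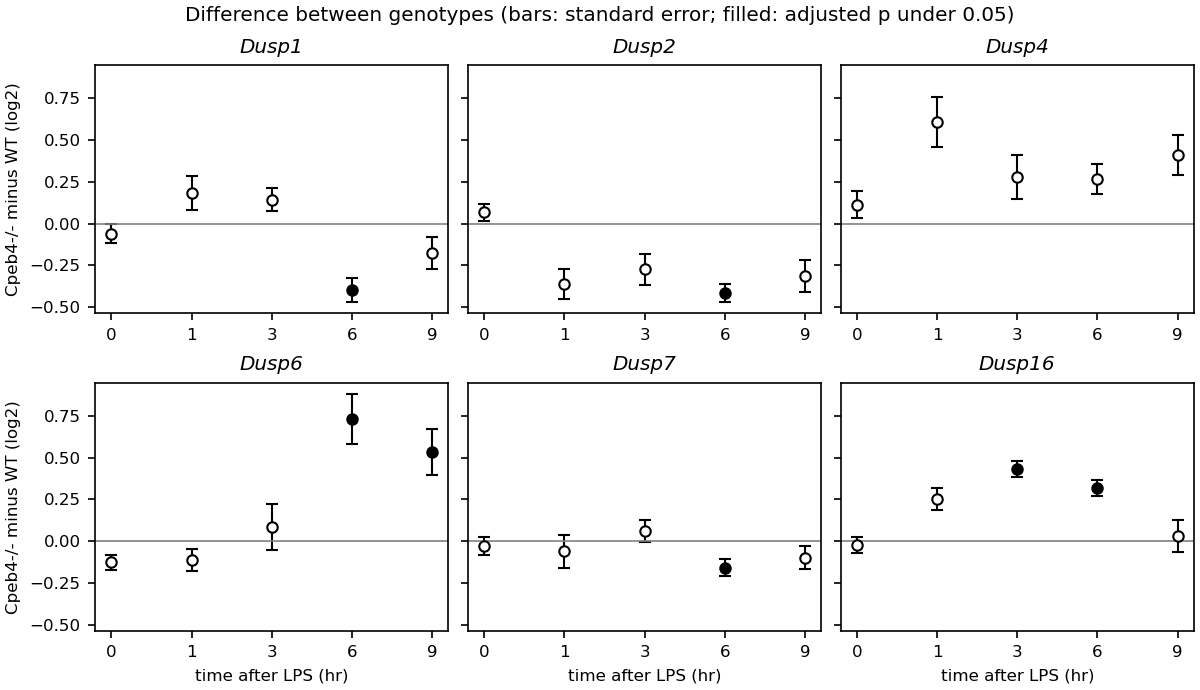
Difference between Cpeb4-/- and WT means (log2, y axis) at each time after LPS in hr (x axis) for the 5 genes that passed the test at any time and for Dusp4, with the limma standard error as bars and filled points for an adjusted p under 0.05. At 6 hr Dusp1 (−0.40) and Dusp2 (−0.42) lie below 0, and Dusp6 (0.73) and Dusp16 (0.32) above it.

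Dusp1 and Dusp2 were lower in Cpeb4-/- cells at 6 hr. For Dusp1 the Cpeb4-/- mice 2, 3, 55 and 62 gave 12.83, 13.04, 13.16 and 13.00, all below the lowest WT value of 13.31. The difference was −0.40 (SE 0.07, 1.32-fold lower, adjusted p = 0.0031), −0.33 within batch 1 and −0.47 within batch 2. At 1 and 3 hr the difference had the other sign, +0.18 and +0.14, and did not pass. The step from 3 to 6 hr itself differed between the genotypes by −0.54 (SE 0.13, adjusted p = 0.030, background of called genes 0.923%). This call was lost after quantile normalization (−0.45, adjusted p = 0.083) and in 6 of the 8 fits that left out a mouse, without WT mouse 25, 87 or 88 or Cpeb4-/- mouse 2, 3 or 62 (−0.48 to −0.58, adjusted p from 0.058 to 0.16). The change from 0 to 6 hr differed by −0.34 (adjusted p = 0.17) and passed only with the replicate block (adjusted p = 0.020).

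For Dusp2 the Cpeb4-/- mice gave 12.29, 12.31, 12.47 and 12.46 at 6 hr, all below the WT values of 12.76, 12.80, 12.89 and 12.76. The difference was −0.42 (SE 0.05, 1.33-fold lower, adjusted p = 0.00049) was −0.37 and −0.46 within the batches and, like the 6 hr call of Dusp1, held under all 15 alternatives. Dusp2 values also did not overlap at 1 hr (−0.36, adjusted p = 0.066) and 9 hr (−0.31, adjusted p = 0.070), and at 3 hr the difference was −0.27 (adjusted p = 0.12). With the replicate block these became calls, with adjusted p-values of 0.0047, 0.011 and 0.038. They were also calls with all 40 libraries in 1 fit and no block (adjusted p = 0.0054, 0.011 and 0.039). The change from 0 to 6 hr was 3.48 in WT and 3.00 in Cpeb4-/- cells, a difference of −0.48 (adjusted p = 0.024, 2.94% of all genes called) that missed the threshold after quantile normalization (−0.38, adjusted p = 0.11) and without WT mouse 25 or Cpeb4-/- mouse 2, 3 or 62 (adjusted p from 0.066 to 0.098). The change from 0 to 9 hr differed by −0.38 and passed only with the block (adjusted p = 0.035).

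Dusp16 was higher in Cpeb4-/- cells at 3 and 6 hr. At 3 hr the Cpeb4-/- mice 2, 3, 55 and 62 gave 12.19, 12.25, 12.16 and 12.16 and the WT mice 25, 69, 87 and 88 gave 11.76, 11.74, 11.70 and 11.85. The groups did not overlap, and the difference was 0.43 (SE 0.05, 1.35-fold, adjusted p = 0.0018). At 6 hr it was 0.32 (1.25-fold, adjusted p = 0.0013), again without overlap. Both calls held under all 15 alternatives, and within the batches the differences were 0.40 and 0.46 at 3 hr and 0.29 and 0.35 at 6 hr. At 1 hr the values also did not overlap (+0.25, adjusted p = 0.071, 0.0094 with the replicate block and 0.0092 with all 40 libraries in 1 fit without it), whereas at 9 hr the difference was 0.03. The rise over untreated cells was larger in Cpeb4-/- cells by 0.46 at 3 hr (adjusted p = 0.026, 0.206% of all genes called) and 0.34 at 6 hr (adjusted p = 0.038). Both of these calls were lost without WT mouse 25, 69 or 88 or Cpeb4-/- mouse 3, 55 or 62 (0.43 to 0.48 and 0.29 to 0.37), the one at 3 hr also without WT mouse 87 (0.45) and the one at 6 hr also with no expression filter (adjusted p = 0.058). The step from 6 to 9 hr differed by −0.29 (adjusted p = 0.11, and 0.044 with the block).

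Dusp6 showed the largest difference. At 6 hr the Cpeb4-/- mice 2, 3, 55 and 62 gave 9.40, 9.46, 8.92 and 9.68, and the WT mice 25, 69, 87 and 88 gave 8.58, 8.49, 9.01 and 8.45. Cpeb4-/- mouse 55 was below WT mouse 87, so the groups overlapped, and the difference was 0.73 (SE 0.15, 1.66-fold, adjusted p = 0.0069). It was 1.05 within batch 1 and 0.41 within batch 2, and it missed the threshold only with no expression filter (adjusted p = 0.067). At 9 hr the difference was 0.53 (SE 0.14, adjusted p = 0.042), 0.79 and 0.28 within the batches, with Cpeb4-/- values of 9.86 to 10.50 and WT values of 9.42 to 9.92. That call was lost with no filter (adjusted p = 0.13), without the trend (adjusted p = 0.076) and without WT mouse 25, 69 or 88 or Cpeb4-/- mouse 3 or 62 (0.42 to 0.53).

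After its 3 hr low the mean of Dusp6 rose further in Cpeb4-/- cells. From 3 to 6 hr it rose by 1.14 in Cpeb4-/- and 0.50 in WT cells, a difference of 0.64 that passed only with the replicate block (adjusted p = 0.11 without it and 0.0096 with it). Against untreated cells Dusp6 had changed by −1.45 in WT and by −0.60 in Cpeb4-/- cells after 6 hr, a difference of 0.86 (SE 0.19, adjusted p = 0.011), where 2.94% of all genes passed. Without Cpeb4-/- mouse 2 or mouse 3 this missed the threshold (0.83 and 0.82, adjusted p = 0.055 and 0.061). At 9 hr the difference of changes was 0.66 (adjusted p = 0.071, 0.0044 with the block, 0.046 without WT mouse 87 and 0.018 without Cpeb4-/- mouse 55). At 0 hr the 4 Cpeb4-/- values, 9.92 to 10.00, lay just below the WT values, 10.01 to 10.13, a difference of −0.13 that did not pass.

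The remaining members gave weaker or no calls. Dusp7 was 0.16 lower in Cpeb4-/- cells at 6 hr (adjusted p = 0.046) with overlapping values, and the call was lost in 12 of 15 alternatives, among them the replicate block (adjusted p = 0.13) and the fits without WT mouse 25, 69 or 88 or Cpeb4-/- mouse 2, 3 or 62 (−0.14 to −0.18). Dusp4 was higher in Cpeb4-/- cells by 0.61 at 1 hr (SE 0.15, adjusted p = 0.066), with 11.04, 11.57, 11.25 and 11.41 against 10.86, 10.96, 10.31 and 10.71 and no overlap. It passed there with the block (adjusted p = 0.0013), without WT mouse 69 (0.69, adjusted p = 0.036) and without Cpeb4-/- mouse 2 (0.70, adjusted p = 0.043). With all 40 libraries in 1 fit and no block it passed too (adjusted p = 0.0032). At 9 hr Dusp4 was higher by 0.41 (adjusted p = 0.064), again without overlap and called with the block (adjusted p = 0.018), with batch as a covariate (adjusted p = 0.042) and without Cpeb4-/- mouse 2 (adjusted p = 0.0091). The fit of all 40 libraries without the block called it as well (adjusted p = 0.032). At 3 hr (+0.28) it passed without WT mouse 88 (adjusted p = 0.040) and at 6 hr (+0.27) without Cpeb4-/- mouse 62 (adjusted p = 0.041).

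Dusp8 was lower in Cpeb4-/- cells at 0 hr, 6.04 to 6.14 against 6.17 to 6.49, without overlap but without a call (−0.32). At 6 hr the difference was −0.31 (adjusted p = 0.077), which passed without Cpeb4-/- mouse 55 (adjusted p = 0.048). At 9 hr it was −0.41 (adjusted p = 0.20, 0.028 with the block and 0.025 with all 40 libraries in 1 fit without it). Dusp14 was 0.51 lower in Cpeb4-/- cells at its 3 hr peak, with 3.82, 3.38, 3.95 and 3.77 against 4.54, 4.26, 4.33 and 3.83 (adjusted p = 0.14, 0.049 with the block and 0.028 without WT mouse 88). With all 40 libraries in 1 fit and no block the adjusted p was 0.044. Dusp14 and Cpeb4 lie on the same chromosome, at chr11:84048033-84069256 and chr11:31870104-31935635 of GRCm38. For Dusp5 the differences between the genotypes lay between −0.02 and 0.14 over the 5 times, and for Dusp10 between −0.30 and 0.12.

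Because each mouse gave all 5 times, the change within a mouse could be compared directly, by a two-sided exact permutation test of 4 against 4 changes, for 10 genes and 4 times, 40 tests in all. The smallest p that 70 arrangements allow is 0.0286, and it is reached when the changes do not overlap. In order of time this was so for 4, 4, 4 and 2 of the 10 genes, where 5.27%, 5.01%, 11.8% and 9.63% of all genes did not overlap. Dusp16 separated the genotypes at 1, 3 and 6 hr, with a larger rise in all 4 Cpeb4-/- mice. Dusp2 separated them at 1, 6 and 9 hr, with a smaller rise in all 4 Cpeb4-/- mice. Dusp6 did so at 6 and 9 hr: at 6 hr its change was −0.60 ± 0.32 in Cpeb4-/- and −1.45 ± 0.24 in WT mice (SD, n = 4). Dusp1 did so at 6 hr, with 2.23 ± 0.15 against 2.57 ± 0.10 (SD, n = 4). The other separations were Dusp4 at 1 hr and Dusp8 at 1 and 3 hr, with changes higher in Cpeb4-/- mice, and Dusp10 and Dusp14 at 3 hr, with changes lower in them. For Dusp8 the untreated level was lower in Cpeb4-/- cells (−0.32). Its level differed by −0.15 at 1 hr and by 0.03 at 3 hr, so it was not clearly higher in them at either time. None of these p-values is adjusted for the 40 tests.

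**Figure D4:**
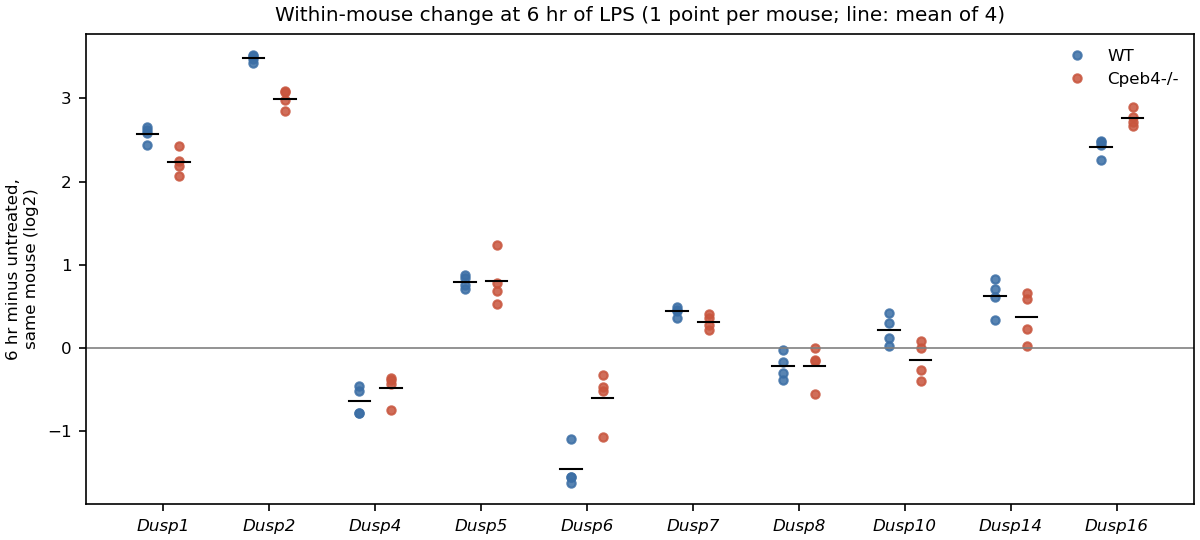
Change from untreated to 6 hr of LPS in the same mouse (log2, y axis) for the 10 genes (x axis), with 1 point per mouse in WT (blue) and Cpeb4-/- (red) and a black line at the mean of 4. The points of the genotypes do not overlap for Dusp1 and Dusp2 (Cpeb4-/- lower) and for Dusp6 and Dusp16 (Cpeb4-/- higher).

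The CPEs of the genes that passed the test between the genotypes, and of Dusp4, are shown because a CPE is the element CPEB4 binds. Dusp4 passed only in alternatives, as did Dusp8 and Dusp14, whose CPEs are not shown. They were counted as TTTTAT or TTTTAAT in the longest annotated 3′ UTR of each gene (GENCODE M21, GRCm38), and AREs as the pentamer ATTTA. A CPE was present in 7 of the 10 genes and in 61.8% of the 11970 tested genes with a 3′ UTR, and an ATTTA in 8 of 10 against 69.3%. These 30-base windows are on the gene strand, with the CPE in capitals.

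Dusp1, chr17:26505610-26505639: tgggatgactttTTTTATacaacagaataa

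Dusp4, chr8:34819134-34819163: tgcgcaaccaatTTTTATtgagtggagagg

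Dusp6, chr10:99266774-99266803: aaaacctgatacTTTTATctgattattgta

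Dusp6, chr10:99266842-99266871: cttgtatttgttTTTTATctttgggcttaa

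Dusp6, chr10:99266930-99266959: aaaaatgttctTTTTAATccaaagggtata

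Dusp16, chr6:134717560-134717589: atgttgtttgtTTTTAATgttagagggcaa

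Dusp6, which differed most, had 3 CPEs and 1 ATTTA in a 3′ UTR of 1190 bases. Dusp1 had 1 CPE, which began 38 bases before the annotated end of the transcript, and 4 ATTTA in 690 bases. Dusp2 had 0 CPEs of the counted forms and 4 ATTTA in 581 bases. Of the 3 genes called lower at 6 hr, Dusp1 held the counted CPE letters, and Dusp2 and Dusp7 did not. The paper lists further forms of the CPE. Among them are forms with guanine in place of adenine, which it reports as enriched in mRNAs bound by CPEB4. These further forms were not searched, and the CPE numbers given here leave them out. Whether Dusp2, Dusp5 and Dusp7 hold any of them was not tested. Dusp16 had 1 CPE and 3 ATTTA in 2416 bases, and Dusp4 had 1 and 2 in 1111 bases. Of the others, Dusp8 and Dusp10 had 2 CPEs each and Dusp14 had 1, whereas Dusp5 and Dusp7 had 0 of the counted forms. Dusp7 and Dusp14 held no ATTTA. Poly(A) tails and binding were not measured in these libraries.

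The patterns most like each member were found by Pearson r over the 40 libraries among 13103 genes. These libraries share 8 mice and 5 times, so r mainly describes the shape of the response and is given without a test. Dusp1 was most like Nlrp3 (0.984), the inflammasome sensor, Pim1 (0.976), a kinase, and Zfp36 (0.975), which encodes TTP. Dusp2 was most like the NF-kB inhibitors Tnfaip3 (0.985) and Nfkbia (0.98) and the syndecan Sdc4 (0.979). Dusp4 was most like the immediate early genes Egr3 (0.971) and Egr2 (0.951), with Gpcpd1 (0.955) between them. Dusp5 was most like Cdc42ep4 (0.985), Tmem88 (0.975) and the early gene Nr4a1 (0.968).

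Dusp16 was most like Ptpn12 (0.985), a tyrosine phosphatase, Akna (0.985) and Ptgs2 (0.983), which encodes the cyclooxygenase COX-2. Dusp8 was most like Nfkbid (0.97), Gdf15 (0.966) and Gtf2ird2 (0.963). For Dusp6 the nearest were Kctd7 (0.931), 2900005J15Rik (0.922) and Zfp316 (0.922), and for Dusp7 Arid3b (0.954), Ccdc97 (0.952) and Slf2 (0.949). Dusp14 was nearest to Rcsd1 (0.945), Efna2 (0.941) and Smim3 (0.938). Dusp10 had the lowest values, with Fbxw7 (0.892), Neurl2 (0.89) and Ubn1 (0.883).

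The rest of the pathway was read from lists of genes named by role. At 1 hr in WT cells, the early genes and transcription factors that MAP kinases induce rose as the nuclear phosphatases did: 17 of 22 tested were higher and 0 lower (median +1.00, all genes +0.02). Egr1 rose by 4.07, Fosb by 3.23 and Egr3 by 2.80. Of the other feedback inhibitors of ERK, 4 of 11 were higher and 2 lower (median −0.03), and the rises of Errfi1 (3.61) and Spry1 (2.87) were close to those of Dusp5 (3.67) and Dusp1 (2.75). Of the other dual-specificity phosphatases, 1 of 11 was higher (Dusp3, +0.19) and 4 lower (Dusp18 −0.47, Dusp28 −0.32 and Dusp12 −0.25 the furthest, median +0.06).

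The kinases moved less at 1 hr. Of the MAP kinases 1 of 8 was higher, Mapk8 (JNK1) by 0.45, and 2 lower, Mapk7 (ERK5) by −0.55 and Mapk9 (JNK2) by −0.16 (median −0.06). Upstream kinases gave 4 higher and 2 lower of 18 (median +0.10), led by Map2k3 (+0.87), which activates p38, and Map3k8 (+0.65), which activates ERK in TLR signalling. Downstream kinases gave 3 higher and 1 lower of 10 (median +0.12), led by Mapkapk2 (+0.90), the p38 effector that acts on TTP.

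At 6 hr in WT cells most pathway genes had moved, as had most genes. Of the upstream kinases 8 of 18 were higher and 7 lower, with Map3k8 (+2.08), Map2k4 (+1.53) and Map2k1 (+1.45) highest and Map2k6 (−2.38) lowest. Downstream kinases split into 4 higher, led by Mapkapk2 (+1.98), and 5 lower, led by Mknk2 (−2.11), of 10. MAP kinases gave 4 higher, led by Mapk11 (+0.77), and 3 lower, led by Mapk14 (−0.69) and Mapk3 (−0.68), of 8. Of the early genes 13 of 22 were higher, led by Ier3 (+2.50), and 6 lower, led by Elk3 (−1.53). Feedback inhibitors gave 4 higher (Spred1 +1.89) and 5 lower (Rasal1 −1.55) of 11, and other dual-specificity phosphatases 3 higher (Dusp28 +1.45) and 7 lower (Dusp22 −1.59) of 11. The medians of these lists lay between −0.44 and +0.39, against −0.02 for all genes.

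Between the genotypes at 6 hr, where 16.3% of all genes passed, the kinase lists held single calls in both directions. Of 9 MAP kinases, Mapk8 (+0.47, adjusted p = 0.00019), Mapk7 (+0.24) and Mapk14 (+0.18) were higher in Cpeb4-/- cells and Mapk3 (−0.13) lower. Mapk8 and Mapk14 encode substrates of Dusp1 and Dusp16. Of 18 upstream kinases Map3k5 (+0.29) was higher, and Map2k4 (−0.53, adjusted p = 0.00020), Map3k8 (−0.33) and Map2k5 (−0.16) were lower. Of 10 downstream kinases 1 passed, Mapkapk3 (+0.29).

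Of the 22 early genes at 6 hr, Fosl1 (+1.04, adjusted p = 0.0018), Elk3 (+0.45) and Phlda1 (+0.35) were higher in Cpeb4-/- cells and Jun (−0.27) lower. Of 11 other dual-specificity phosphatases 0 were higher and 3 lower, Dusp28 (−0.36), Dusp11 (−0.16) and Dusp3 (−0.15), and of 11 feedback inhibitors Dok1 alone passed (−0.17). List medians between the genotypes lay between −0.05 and +0.04, beside −0.02 for all genes. Among the pathway genes that passed the test at 6 hr, Fosl1 alone exceeded Dusp6 in the size of the difference. Those of Dusp1 and Dusp2 were exceeded by those of Fosl1, Map2k4, Mapk8 and Elk3. Genes that did not pass were not ranked.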

How the data were processed

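RNA of BMDMs from 8 mice at 5 times was measured in 40 libraries. The authors aligned reads with STAR 2.3.0e to mm10, counted them per gene with featureCounts and deposited rlog values of DESeq2, which are on a log2 scale. No counts are in the table, so depth is unknown and no counting intervals are given. All 40 value columns were used, and no pair was identical.

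The 10 genes, the pathway lists and the marker lists were chosen with earlier results of these data known. Time and genotype by time contrasts were fitted with limma 3.58.1 (lmFit, eBayes with trend, R 4.3.3) as 10 group means over 40 libraries, and genotype differences over the 8 libraries of a time. Genes with a mean rlog under the log2 of 5 were left out (13103 of 27179 remained over all libraries), p-values were adjusted by Benjamini-Hochberg over all genes tested, and calls had an adjusted p under 0.05. The fits were tested on simulated data. Each mouse gave all 5 times: after removal of group means, 68 of 80 pairs of libraries of the same mouse correlated over 0.1 (median r 0.29), against −0.09 for pairs of different mice. Removing group means itself pulls the r of different mice negative when that of the same mouse is positive. The −0.09 is therefore not an independent baseline. Because of the correlation within mice, the mouse as a replicate block was an alternative fit. In time and genotype by time contrasts the block was a fixed effect of the mouse. In genotype differences it was a shared within-mouse correlation of 0.23, fitted over all 40 libraries. The mice are separate animals, so the spread covers animals and cultures.

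Besides the 10 members and Cpeb4, the text names up to 3 rises and 3 falls of largest size per pathway list among called genes, and the 3 genes with the highest Pearson r for each member. Genes that another rule asks for, such as markers, are also named. Some listed marker genes are not reported here, and the marker counts leave them out. Other alternatives were no filter, a floor of 5 in place of log2 of 5, an untrended eBayes, quantile normalization, batch as a covariate, other sets of libraries and leaving out each mouse. Values within batches were added after the data were seen. Motifs and sequences came from RefSeq promoters of GRCm38.p6 and GENCODE M21 transcripts, with Python 3.11.15.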

Additional observations from a re-analysis of the deposited data

Results flagged for a closer look

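The change of Dusp6 from 0 to 6 hr differed between the genotypes by 0.86 in the interaction test (less of a fall in Cpeb4-/- cells), and that of Dusp2 by −0.48 (less of a rise). The change of Dusp16 differed by 0.46 at 3 hr and by 0.34 at 6 hr, with the larger rise in Cpeb4-/- cells. The step of Dusp1 from 3 to 6 hr differed by −0.54, since only the WT cells had a second rise that passed the test.

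In 2 of 100 groups of 4 mice, 1 value stood apart from the other 3 (Dixon's test, the gap to the nearest value as a share of the range), where chance flags about 1 group in 20. Untreated Dusp6 was 10.01 in WT mouse 88, against 10.11 to 10.13 in the other WT mice. Dusp14 at 1 hr was 2.96 in WT mouse 69, against 2.69 to 2.73 in the others.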

How the results depend on the processing

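Under 16 alternatives, 107 of the 128 called member results kept their call in every one, and 1 called value changed sign: the step of Dusp2 from 1 to 3 hr in WT cells, −0.054 after quantile normalization. Another 65 sign changes were between values that missed the threshold on both sides, of 3564 compared. The counts of members called in the LPS responses and steps stayed within 1.5 times of those reported, and 14 within-mouse changes did not overlap, 11 after quantile normalization.

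The numbers called between the genotypes moved more. With the mouse as a replicate block 3, 3 and 4 members were called after 1, 3 and 9 hr, and with all 40 libraries in 1 fit 3, 3 and 4. Without a filter on low expression 3 were called at 6 hr and 0 at 9 hr, without the trend 0 at 9 hr, and with batch as a covariate 3 at 9 hr. In the genotype by time contrasts the replicate block gave 2 calls for 9 against 0 hr, 2 for 6 against 3 hr and 1 for 9 against 6 hr, and quantile normalization gave 0 for 6 against 3 hr. Leaving out each mouse in turn gave 0 to 3 members after 1 hr, 1 to 4 after 3 hr, 4 to 6 after 6 hr and 0 to 3 after 9 hr. The counts that moved were 3 without WT mouse 69 and 1 without Cpeb4-/- mouse 2 after 1 hr, 4 without WT mouse 88 after 3 hr, and after 9 hr 3 without Cpeb4-/- mouse 2 and 0 without WT mouse 25 or 69 or Cpeb4-/- mouse 3 or 62. For genotype by time it gave 0 to 1 for 3 against 0 hr, 0 to 3 for 6 against 0 hr, 0 to 1 for 9 against 0 hr and 0 to 1 for 6 against 3 hr. The cause was not tested. Beside the calls given with the results, the block added those of Dusp5 from 3 to 6 hr in WT cells (0.26, adjusted p = 0.027), of Dusp4 at 9 hr (−0.26, adjusted p = 0.016) and of Dusp10 from 6 to 9 hr (−0.24, adjusted p = 0.048), both in Cpeb4-/- cells, and it changed no other call. With 4 mice a group, shrunken values and no counts, small differences of weak genes such as Dusp14 are the least certain.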
